A study of Mus musculus with 24 samples.

Results

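In a mouse pancreatic cancer line with or without a knockout of the serine-making enzyme PHGDH, 38 genes of lysosomal enzymes, lysosomal membrane proteins and the TFEB network were followed. The genes were chosen with earlier results of these data known. They are 38 of the 54532 genes in the deposited table, taken by symbol and without a threshold on their values: the transcription factors Tfeb and Tfe3, 6 membrane proteins, 2 proton pump subunits, 8 cathepsins and other peptidases, 13 glycosidases and sulfatases, and 7 lipid hydrolases or lipid-binding proteins. Of these, 36 passed a filter of at least 1 FPKM (read fragments relative to gene length and library depth) in at least 3 libraries and were tested. Ctsc, which encodes the dipeptidyl peptidase cathepsin C, had 0 reads in all 24 libraries. Tfeb had a median of 0.621 FPKM, on 28 to 106 reads a library, reached 1 FPKM in 1 library and was not tested.

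The lysosome is the acidic organelle in which hydrolases break down proteins, glycans, glycolipids and other lipids delivered by endocytosis and autophagy. TFEB and its relative TFE3 switch on many of these genes by binding an E-box whose core reads CACGTG (the CLEAR element is a longer form of it), and the kinase complex mTORC1, which senses amino acids on the lysosomal surface, holds both factors in the cytoplasm. Pancreatic cancer cells are known to rely on lysosomes for nutrients taken from autophagy and from engulfed protein.

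The cells were HY19636, a mouse pancreatic ductal adenocarcinoma (PDAC) line, with Phgdh intact (WT) or knocked out (KO); its enzyme starts the making of serine from a glycolytic intermediate. The medium either held serine and glycine or lacked both, and the cells grew alone (monoculture) or beside hepatocytes (coculture). These 3 factors, fully crossed, gave 8 groups of 3 libraries: WT and KO monocultures with serine and glycine, WT and KO monocultures without them, and the same 4 in coculture. The study asked how hepatocytes, as a source of serine, bear on the growth of such cells in liver. The study thus rests on 1 line, and whether the KO was 1 clone, which stretch of Phgdh was edited, how long serine and glycine were withheld, or how cancer cells were parted from hepatocytes is not stated in the sources at hand. Replicates are numbered without being called separate cultures, so the p-values reflect library-to-library spread, part of which may be technical.

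Libraries held 15740081 to 23479425 reads assigned to genes. Phgdh itself checks the labels only in part: it averaged 922 ± 16.6 FPKM (SD, n = 3) in WT monocultures with serine and glycine and 483 ± 96.6 (SD, n = 3) in the KO ones, and its difference passed the test in 3 of the 4 conditions but not in serine/glycine-free monoculture (800.4 ± 15.5 in WT, 695 ± 68.6 in KO). Of 8 epithelial markers Krt18 was the highest (659 to 2554 FPKM), Cdh1 lay between 93.8 and 148, Muc1 ranged from 0.731 to 69.8 and Sox9 from 2.05 to 58.04, and Epcam was low throughout (0.0262 to 1.298 FPKM). Of 13 hepatocyte markers 8 were at 0 in all 24 libraries, and their sum was 0 to 1.04 FPKM in monoculture and 0.163 to 1.08 in coculture; 13 macrophage and Kupffer markers summed to at most 0.128 FPKM. In bulk libraries, fewer cells of a type and less RNA per cell cannot be told apart. Among replicates Pearson's r across genes was 0.967 to 0.993, lowest for replicate 1 of the KO monoculture with serine and glycine; replicates 1 and 2 of the serine/glycine-free KO coculture also differed more (0.973).

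To show the E-box letters beside the expression values, promoters were taken from RefSeq (GRCm38.p6), which matched 34 of the 38 genes by symbol. Each window ran from 250 bases before to 50 after a start site and was searched on both strands for TCACGTG, for its inner part CACGTG, whose matches therefore overlap those of the longer motif, and for TCATGTG. Of the 34 genes, 10 (29.4%) had a window with TCACGTG, against 4.29% of all 27025 genes in the RefSeq table. The shorter CACGTG was in 11 (32.4% against 8.09%), and TCATGTG was in 5 (14.7% against 4.31%). Any of the 3 was in 14 (41.2% against 12.05%). The genes were picked in part for the TFEB network, whose factors bind this E-box, so these shares are a description and no test. The RefSeq genes were not limited to those tested here for expression. The windows below belong to the 6 genes with a match whose RNA differed most upon serine and glycine withdrawal in KO monoculture; they are printed 5′ to 3′ along the gene, from 250 bases before the start to 30 after it, with the matches in capitals.
Glb1 (chr9:114400828-114401107, plus strand): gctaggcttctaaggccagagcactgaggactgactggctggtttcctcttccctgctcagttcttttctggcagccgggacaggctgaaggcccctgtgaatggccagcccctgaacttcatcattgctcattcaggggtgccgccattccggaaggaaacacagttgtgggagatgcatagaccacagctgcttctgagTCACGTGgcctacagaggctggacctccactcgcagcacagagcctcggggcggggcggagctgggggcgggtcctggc
Atp6v0d1 (chr8:105566035-105566314, minus strand): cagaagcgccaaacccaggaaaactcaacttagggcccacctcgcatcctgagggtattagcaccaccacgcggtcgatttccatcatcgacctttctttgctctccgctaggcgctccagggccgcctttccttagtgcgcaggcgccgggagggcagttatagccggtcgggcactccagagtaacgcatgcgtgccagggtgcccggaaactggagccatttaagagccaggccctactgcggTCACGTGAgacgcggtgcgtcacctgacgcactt
Ctsa (chr2:164833523-164833802, plus strand): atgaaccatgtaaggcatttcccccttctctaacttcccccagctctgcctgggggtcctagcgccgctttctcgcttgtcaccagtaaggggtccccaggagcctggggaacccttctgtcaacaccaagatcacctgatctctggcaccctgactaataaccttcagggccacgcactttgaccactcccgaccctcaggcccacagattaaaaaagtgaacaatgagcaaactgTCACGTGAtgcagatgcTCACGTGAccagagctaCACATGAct
Ctsl (chr13:64370491-64370770, minus strand): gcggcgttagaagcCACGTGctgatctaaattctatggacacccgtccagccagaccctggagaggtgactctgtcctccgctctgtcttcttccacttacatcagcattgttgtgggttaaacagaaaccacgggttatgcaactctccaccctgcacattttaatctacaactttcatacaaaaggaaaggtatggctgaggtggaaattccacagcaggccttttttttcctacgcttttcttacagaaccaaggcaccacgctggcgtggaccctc
Mcoln1 (chr8:3500269-3500548, plus strand): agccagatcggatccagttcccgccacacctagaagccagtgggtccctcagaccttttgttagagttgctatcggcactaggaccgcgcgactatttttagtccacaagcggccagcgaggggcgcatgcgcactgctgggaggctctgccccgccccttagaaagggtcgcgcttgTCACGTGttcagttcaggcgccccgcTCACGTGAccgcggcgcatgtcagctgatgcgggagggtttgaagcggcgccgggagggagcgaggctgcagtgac
Naglu (chr11:101069844-101070123, plus strand): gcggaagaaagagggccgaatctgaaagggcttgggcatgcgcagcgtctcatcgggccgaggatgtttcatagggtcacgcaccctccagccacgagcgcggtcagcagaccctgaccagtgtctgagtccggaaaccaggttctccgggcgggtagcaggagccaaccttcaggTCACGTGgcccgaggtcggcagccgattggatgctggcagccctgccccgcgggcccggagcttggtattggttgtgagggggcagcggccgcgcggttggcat
In Glb1, which encodes beta-galactosidase, the match begins 49 bases before the start site. Ctsa (the protective protein cathepsin A) has another RefSeq window, chr2:164832622-164832921, which holds no match. Its window shown here holds 2 copies of the palindrome formed by TCACGTG on both strands. They begin 13 bases before and at base 5 after the start of that window's transcript, with a TCATGTG on the minus strand at base 22. Atp6v0d1, a subunit of the proton pump, holds the same palindrome 4 bases before its start, and Mcoln1, the calcium channel TRPML1, has a TCACGTG 72 bases before its start and the palindrome 46 bases before it. Naglu, a heparan sulfate glucosaminidase, has 1 at 74 bases before the start, and Ctsl (cathepsin L) has only CACGTG, far upstream in the window. A match is a run of letters, not a shown binding site. The 6 genes did not move one way: as given below, RNA of Atp6v0d1 rose on withdrawal in KO monoculture and RNA of the other 5 fell. Matches of any kind were found in 8 of 19 genes that fell there (42.1%), 2 of 6 that rose (33.3%) and 4 of 7 that did not pass the test (57.1%), among tested genes with a window.

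Levels differed widely among the genes. In WT monoculture with serine and glycine, 7 genes exceeded 100 FPKM: Lamp1, a main glycoprotein of the lysosomal membrane, came first with 401, 407 and 398 FPKM. Psap, whose product is cut into the saposins that present glycolipids to hydrolases, followed with 233, 238 and 229, then Ctsd (cathepsin D), Cd63 (a tetraspanin), Asah1 (acid ceramidase), Atp6ap1 (a pump accessory subunit) and Npc2 (a cholesterol carrier). Another 20 genes lay between 10 and 100 FPKM, 9 between 1 and 10, and Tfeb and Ctsc under 1. Of 37 pairs of neighbours in this order, 16 overlapped in their libraries. Tfe3 had 10.03, 10.03 and 10.1 FPKM, above every Tfeb library, and the 3 libraries scarcely varied.

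**Figure D1:**
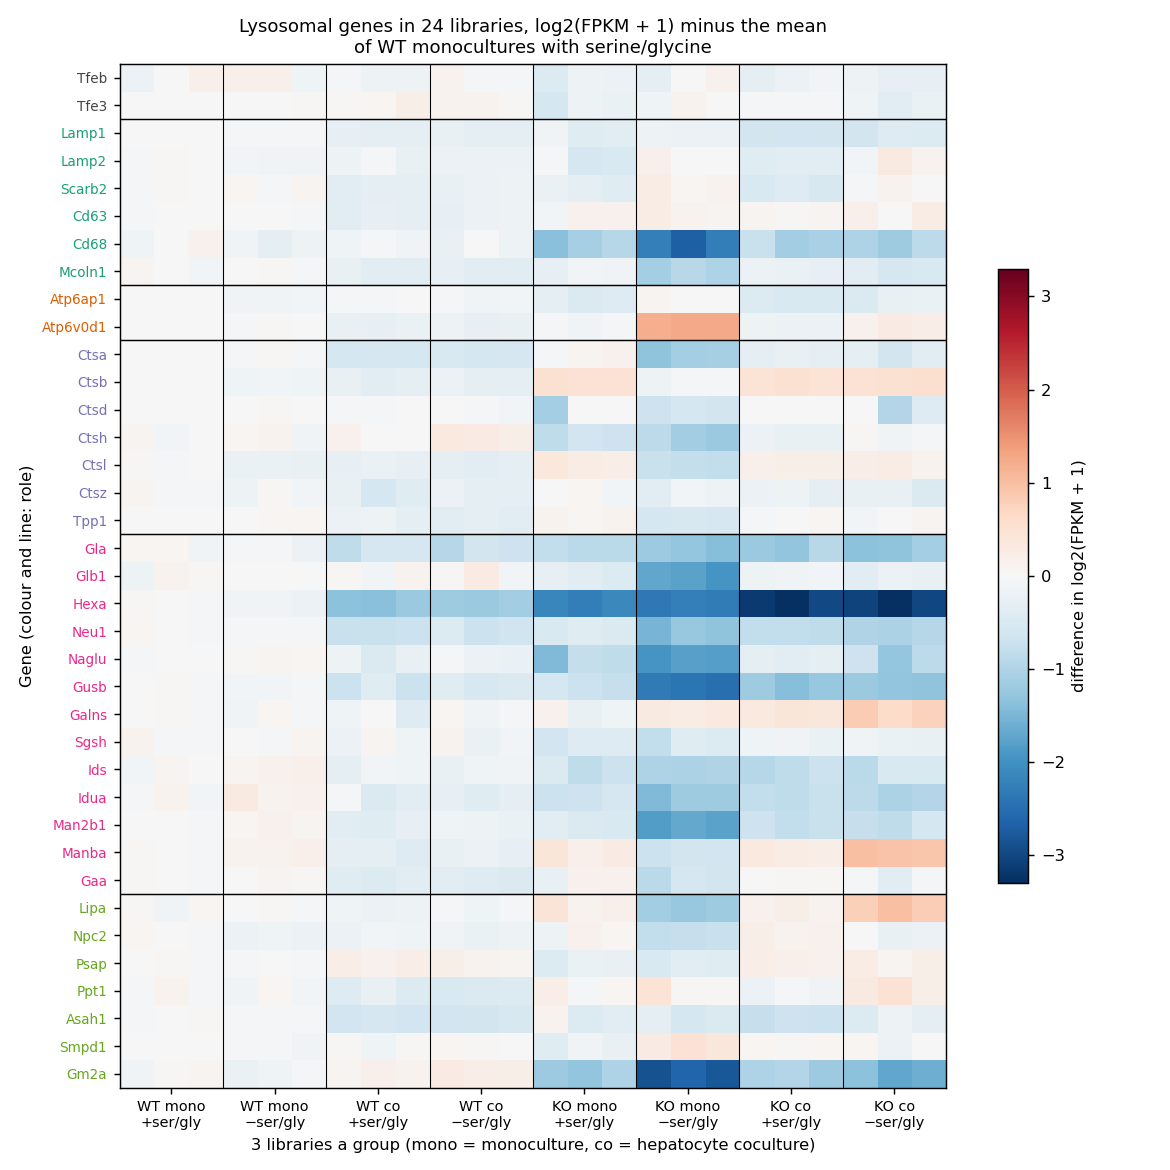
Heat map of the 36 tested genes and Tfeb (rows, by role) in the 24 libraries (columns, by group); colour is log2(FPKM + 1) relative to the gene's mean over WT monocultures with serine and glycine. The serine/glycine-free KO monocultures form a block of low values for most hydrolases with a few high rows such as Atp6v0d1, and Hexa is low in all 12 KO libraries.

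Withdrawal of serine and glycine changed lysosomal RNA in KO monocultures and hardly in WT cells. In KO monoculture 21 of 36 genes fell and 7 rose on log2(FPKM + 1) (limma, adjusted p under 0.05), mostly enzymes among those that fell, with the proton pump, Lamp2, Scarb2, Smpd1, Galns and Tfe3 among those that rose. This comparison was broad: 70.8% of all 12061 tested genes were called, 36.2% higher and 34.5% lower, so the share of lysosomal genes called (77.8%) was near the background, while 58.3% lower and 19.4% higher were a different split. Their median change was -0.39, against 0.00 over all tested genes. In WT monoculture 1 of 36 was called, Ctsl, which was lower (-0.22 ± 0.04 SE, adjusted p = 0.0109), where the background was 1.63% (0.257% lower, 1.37% higher); quantile normalization, or leaving out WT replicate 1 with serine and glycine or replicate 1 or 3 without, removed that call. The 35 others ranged from -0.20 to 0.19. In limma 4 of the 36 passed an unadjusted p of 0.05, a threshold at which the share of all genes was not taken.

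Glycosidases and sulfatases formed the largest group, with 10 of 13 lower and 1 higher in KO monoculture. Gusb, the beta-glucuronidase that trims glycosaminoglycans (chr5:129989011-130003049, GRCm38), had 6.46, 5.82 and 5.62 FPKM with serine and glycine and 1.201, 1.11 and 0.993 without. The groups lay far apart, while the 6 WT monocultures stayed between 9.44 and 10.4. It fell by 1.73 ± 0.08 (SE, limma adjusted p = 1.38e-13) on the log2 scale. Glb1, with the E-box shown above, had 11.6, 11.04 and 10.1 and then 3.61, 3.44 and 2.98 FPKM. These 3 monocultures without serine and glycine (starved, below) lay below all 21 other libraries, and the change was -1.46 ± 0.09 SE, adjusted p = 1.58e-11. Man2b1, the lysosomal alpha-mannosidase, went from 7.23, 6.66 and 6.54 to 1.99, 2.28 and 2.13 FPKM, with no overlap (-1.32 ± 0.06 SE, adjusted p = 2.54e-13).

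Manba (beta-mannosidase, -0.93 ± 0.06 SE, adjusted p = 1.51e-11), Neu1 (the sialidase that works in a complex with cathepsin A, -0.91 ± 0.07 SE, adjusted p = 3.24e-10) and Naglu (-0.82 ± 0.14 SE, adjusted p = 3.97e-05) fell by less. Gaa, the acid alpha-glucosidase of glycogen breakdown, went from 38.2, 50.4 and 50.4 to 24.1, 30.4 and 29.3 FPKM and also fell (-0.705 ± 0.10 SE, adjusted p = 2.09e-06). Its first library with serine and glycine stood below the other 2 but above all 3 without. Idua, Gla and Ids, which act on heparan or dermatan sulfate, on globosides and on iduronate sulfate, had changes of -0.63, -0.43 and -0.34. Idua went from 1.501, 1.57 and 1.77 to 0.487, 0.803 and 0.805 FPKM, so low that adding 1 shrank its change. The call of Ids was lost (limma adjusted p = 0.0585) when replicate 1 of both KO monoculture groups was left out. Hexa, the hexosaminidase alpha chain, differed little, with 14.5, 13.1 and 14.6 and 12.2, 13.2 and 12.8 FPKM. Galns, a sulfatase for keratan sulfate, was the exception that rose, from 4.61 to 6.31 FPKM with serine and glycine to 7.15, 6.82 and 7.31 FPKM without (0.37 ± 0.10 SE, adjusted p = 0.0026).

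Among cathepsins and other peptidases 6 of 7 tested genes fell on withdrawal in KO monoculture. Ctsa went from 55.2, 60.4 and 62.1 to 21.99, 25.6 and 26.1 FPKM (-1.24 ± 0.07 SE, adjusted p = 3.39e-12), while WT monocultures with and without serine and glycine overlapped between 55.2 and 57.6. Ctsl had 106, 98.9 and 96.6 and then 49.3, 47.4 and 46.8 FPKM (-1.06 ± 0.04 SE, adjusted p = 7.64e-14). Of the exon bases of Ctsa, 17.4% are shared with Pltp and Neurl2 on the other strand. After withdrawal in KO monoculture, Ctsa and Ctsl were thus each below their levels in every other group. Ctsb, a cysteine protease, went from 94.2, 93.1 and 92.7 to 58.8, 64.5 and 63.1 FPKM (-0.58 ± 0.04 SE, adjusted p = 4.35e-10), close to the WT monocultures at 59.7 to 66.8; 12.8% of its exon bases are shared with Fdft1. Tpp1 (tripeptidyl peptidase) changed by -0.66 and Ctsh (an aminopeptidase) by -0.36. Ctsz was called at -0.20, a call that was lost without the 2 replicates named above (-0.12, adjusted p = 0.289). Ctsd was not called: its KO libraries had 74.2, 163 and 163 FPKM with serine and glycine and 101, 109 and 107 without. The single library at 74.2 lay below all 3 starved ones, and the other 2 above them; 34.4% of the exon bases of Ctsd are shared with the annotated gene Gm49369, so its reads are uncertain.

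The lipid genes split. Lipa, the acid lipase that frees cholesterol from its esters (chr19:34492318-34527474), fell from 19.5, 15.6 and 16.1 to 5.94, 5.44 and 5.83 FPKM (-1.42 ± 0.07 SE, adjusted p = 1.12e-12). Gm2a, the activator that hands ganglioside GM2 to hexosaminidase, went from 4.69, 4.31 and 5.48 to 0.786, 1.15 and 0.881 FPKM (-1.59 ± 0.09 SE, adjusted p = 1.21e-11); a read-based fit with limma voom gave -2.38, since adding 1 shrinks changes near 1 FPKM. In both genes the groups were apart. Npc2 fell as well (-0.79 ± 0.07 SE, adjusted p = 1.97e-09). Smpd1, the acid sphingomyelinase, moved the other way, from 8.46, 10.4 and 9.48 to 13.98, 16.3 and 15.1 FPKM (0.63 ± 0.07 SE, adjusted p = 2.26e-07). Psap, Asah1 and the palmitoyl-thioesterase gene Ppt1 did not pass the test (-0.11, -0.22 and 0.10).

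Both tested pump genes rose. Atp6v0d1 had 55.7, 53.2 and 55.3 FPKM with serine and glycine and 132, 138 and 139 without (1.300 ± 0.04 SE, adjusted p = 1.2e-15); the 21 other libraries lay at 69.5 FPKM or less. Atp6ap1 rose by less (0.42 ± 0.06 SE, adjusted p = 1.22e-06). Of the 6 membrane proteins, Scarb2, the receptor that carries glucocerebrosidase to lysosomes, and Lamp2, a receptor of chaperone-mediated autophagy, rose (0.45 and 0.43). Cd68, a mucin-like glycoprotein best known from macrophages, went from 2.73, 3.57 and 4.02 to 1.04, 0.496 and 0.998 FPKM and fell (-1.27 ± 0.13 SE, adjusted p = 5.66e-08; -2.13 with voom). Its groups did not overlap, and the macrophage marker Adgre1 was at 0 in all 24 libraries. Mcoln1 fell from 13.7, 15.4 and 15.2 to 7.04, 8.31 and 7.58 FPKM (-0.87 ± 0.07 SE, adjusted p = 6.15e-10). Lamp1 and Cd63 did not pass the test. Tfe3 rose, 6.42, 8.901 and 8.59 against 9.11, 11.1 and 10.2 FPKM (0.32 ± 0.09 SE, adjusted p = 0.00285); its first library with serine and glycine was the lowest of all 24, and the change was 0.19 without it. The call was lost when only these 2 groups were fitted (adjusted p = 0.0882).

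**Figure D2:**
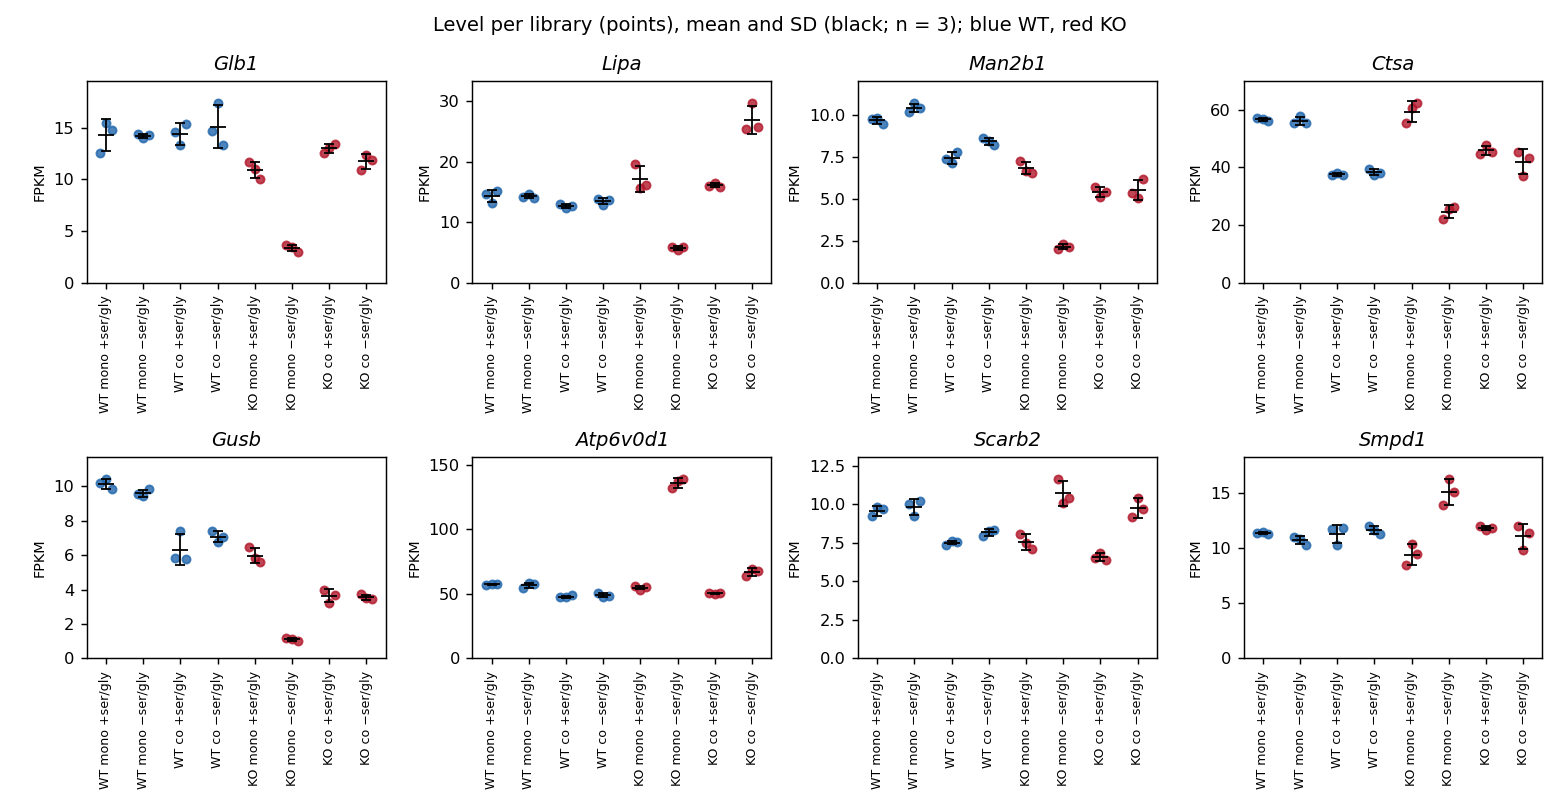
FPKM of 8 genes in each library (points; blue WT, red KO), by group, with the mean and SD of the 3 libraries in black; axes are linear and start at 0. Glb1, Lipa, Man2b1, Ctsa and Gusb sit lowest in serine/glycine-free KO monoculture, where Atp6v0d1, Scarb2 and Smpd1 have their highest mean.

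The difference between genotypes was tested as an interaction, KO change minus WT change on withdrawal in monoculture. It was called for 26 of 36 genes, 19 lower and 7 higher in KO, where 61.2% of all tested genes were called (29.8% lower, 31.4% higher). The lowest was Gusb (-1.66 ± 0.11 SE, adjusted p = 1.22e-10), followed by Glb1 (-1.46 ± 0.12 SE, adjusted p = 5.91e-09) and Gm2a (-1.45 ± 0.13 SE, adjusted p = 1.59e-08). The highest was Atp6v0d1 (1.31 ± 0.06 SE, adjusted p = 5.51e-13), then Smpd1 (0.71 ± 0.10 SE, adjusted p = 7.31e-06). For Hexa, which was not called, the interaction was 0.01. These 2 withdrawal effects have no library in common.

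**Figure D3:**
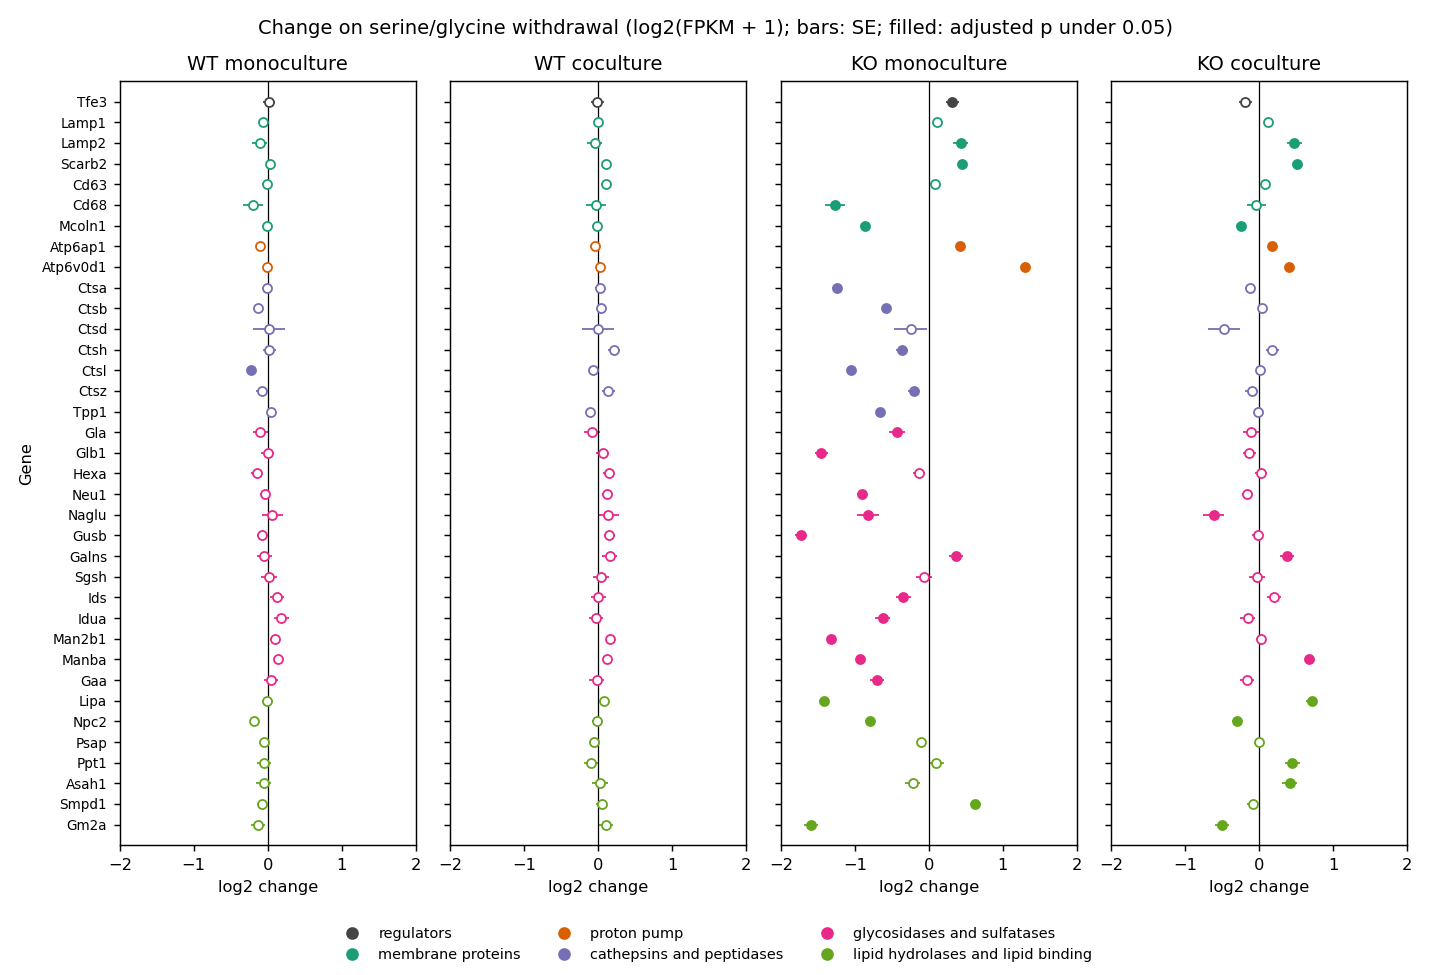
Log2 change on withdrawal of serine and glycine for the 36 tested genes in the 4 backgrounds (WT and KO, monoculture and coculture), with bars of 1 standard error; filled points passed limma's adjusted p of 0.05. WT points lie between -0.22 and 0.21, whereas KO monoculture points run from -1.73 to 1.30.

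With hepatocytes present, the lysosomal genes of starved KO cells lay elsewhere. The starved KO monocultures are the same libraries as in the withdrawal comparison above, where they enter with the opposite sign. Changes opposite to that comparison are thus partly built in and are no independent result. Comparing serine/glycine-free KO coculture with serine/glycine-free KO monoculture, 22 of 36 genes were higher and 6 lower, with a median of 0.41 (all genes, -0.01); 71.3% of all genes were called, 35% higher and 36.3% lower. Lipa rose most, from 5.94, 5.44 and 5.83 FPKM alone to 25.5, 29.6 and 25.8 with hepatocytes (2.05 ± 0.07 SE, adjusted p = 3.65e-15). The coculture values were the highest of all 8 groups. Manba did likewise, from 2.23, 2.45 and 2.37 to 9.41, 8.97 and 8.81 FPKM (1.59 ± 0.06 SE, adjusted p = 3.84e-15). Glb1 rose to 10.9, 12.3 and 11.9 FPKM (1.55 ± 0.09 SE, adjusted p = 5.72e-12), and Gusb to 3.73, 3.49 and 3.43 (1.12 ± 0.08 SE, adjusted p = 9.25e-11), still under its KO monoculture level with serine and glycine.

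Of 13 glycosidases and sulfatases 11 rose in this comparison and 1, Hexa, fell (-0.801 ± 0.08 SE, adjusted p = 1.3e-08). Of 7 peptidases 5 rose, with Ctsh (1.04), Ctsl (0.98) and Ctsa (0.74) first and none lower. Ctsd, not called at 0.15, was split again: 163, 82.3 and 120.1 FPKM in the 3 cocultures, 1 of them within the WT range of 153 to 168 and the others below it. Among lipid genes Gm2a (1.203), Npc2 (0.62) and Psap (0.58) rose beside Lipa, and Smpd1 fell (-0.42). Cd68 rose from 1.04, 0.496 and 0.998 to 3.801, 3.28 and 4.31 FPKM (1.39 ± 0.13 SE, adjusted p = 1.5e-08). Lamp1 fell (-0.32) and Mcoln1 rose (0.55). Both pump genes fell; Atp6v0d1 had 63.5, 69.5 and 67.5 FPKM in coculture (-1.02 ± 0.04 SE, adjusted p = 3.86e-14), between its starved monoculture level and all other groups. Hepatocyte markers summed to at most 1.08 FPKM in coculture, and their part in the result was not tested.

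Within coculture, withdrawal in KO cells called 13 of 36 genes, 9 higher and 4 lower, near the background of 29.9% (15.5% higher, 14.4% lower), with a median of -0.01; without replicate 1 of both KO monoculture groups, which lie outside the comparison but share its estimate of spread, 11 were higher and 8 lower. In WT coculture limma called 0 of 36 (background 0.738%, of which 0.439% higher and 0.298% lower), and voom called 0. There 4 passed an unadjusted p of 0.05 in limma, again without a share of all genes at that threshold. Lipa rose in KO coculture (0.71 ± 0.07 SE, adjusted p = 7.48e-07) and so did Manba (0.68 ± 0.06 SE, adjusted p = 6.39e-08), both of which fell in KO monoculture. Gm2a (-0.502) and Naglu (-0.62) fell in both. Scarb2, Lamp2, Galns and Atp6v0d1 rose in both, by 0.51, 0.47, 0.37 and 0.40 in coculture.

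The interaction of coculture with withdrawal in KO cells, the change in coculture minus that in monoculture, was called for 24 genes, 20 higher and 4 lower, with 57.7% of all genes called (27.9% higher, 29.8% lower). Lipa led (2.13 ± 0.10 SE, adjusted p = 2.02e-12), then Gusb (1.705 ± 0.11 SE, adjusted p = 1.12e-10), Manba (1.604 ± 0.08 SE, adjusted p = 3.07e-12), Man2b1 (1.34 ± 0.08 SE, adjusted p = 1.29e-10) and Glb1 (1.32 ± 0.12 SE, adjusted p = 2.97e-08). The 4 lower were Atp6v0d1 (-0.897), Smpd1 (-0.72), Tfe3 (-0.51) and Atp6ap1 (-0.26).

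Setting serine/glycine-free KO cocultures beside KO monocultures that had both amino acids, 10 genes were higher and 12 lower, with a median of 0.02 and 44.5% of all genes called (22.9% higher, 21.6% lower). Galns (0.81), Ctsh (0.68), Manba (0.66) and Lipa (0.63) were higher; Hexa (-0.93), Gusb (-0.61), Neu1 (-0.53) and Ctsa (-0.49) were lower. Glb1 and Cd68 did not pass the test (0.10 and 0.12). Fitted on these 2 groups alone, 12 of the 22 calls were kept, 5 of them lower.

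Between genotypes, more of these genes were lower than higher in KO monocultures, also with serine and glycine in the medium. In monoculture with both, 20 of 36 genes were lower in KO and 4 higher, with a median of -0.30 and 42.7% of all genes called (21.1% lower, 21.5% higher); 2 were higher when only these 2 groups were fitted. Without them 24 were lower and 5 higher, with a median of -0.62 and 73.6% called (36.3% lower, 37.4% higher). The count higher without them was 3 when WT replicate 1 or 3 or KO replicate 1 was left out, and also with no filter, quantile normalization, voom or the replicate block, while 24 to 26 were lower under these settings. In coculture the split was more even: 12 lower and 10 higher with serine and glycine (43.9% of all genes called, 22% lower, 21.8% higher, median -0.05), and 15 lower and 13 higher without (53.6% called, 27.4% lower, 26.3% higher, median -0.10).

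In all 4 conditions 0 genes were higher in KO and 9 were lower: Cd68, Ctsh, Gla, Gm2a, Gusb, Hexa, Ids, Idua and Man2b1. Of all tested genes, 8.19% were lower and 7.68% higher in all 4. These 4 comparisons share no library, but each sets the same KO cells against the same WT line, with 1 shared estimate of spread. Agreement among them is therefore no replication of the knockout itself. Of the 9 lower genes, only Ctsh lost a call under any alternative, in coculture with serine and glycine when WT replicate 1 there was left out.

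Hexa had the largest difference in 3 of the 4 conditions; in starved monoculture Gm2a, Gusb and Cd68 exceeded it. It had 68.6, 67.5 and 65.7 FPKM in WT monocultures with serine and glycine and 14.5, 13.1 and 14.6 in the KO ones (-2.18 ± 0.08 SE, adjusted p = 3.16e-14). In coculture with both it had 25.7, 25.2 and 27.97 and 6.61, 6.04 and 7.72 FPKM (-1.81 ± 0.08 SE, adjusted p = 4.32e-13). Every KO library lay below every WT library, and within each genotype coculture lay below monoculture; 12.8% of the exon bases of Hexa (chr9:59539540-59565109) are shared with Tmem202, whose reads could be counted in part with it. Its partner in the same pathway, Gm2a, had 11.02, 12.4 and 12.96 FPKM in the same WT monocultures and 4.69, 4.31 and 5.48 in the KO ones (-1.18 ± 0.09 SE, adjusted p = 6.2e-09). Gm2a was lowest in starved KO monoculture (-2.63 ± 0.09 SE, adjusted p = 4.49e-15 against WT). Gusb followed the same order, from -0.68 with serine and glycine to -2.34 without in monoculture. Cd68 differed by -1.14, -2.21, -0.88 and -0.89 in the order monoculture with and without, then coculture with and without.

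Some genes were higher in KO. Ctsb had 66.2, 66.8 and 66.3 FPKM in WT monocultures with serine and glycine and 94.2, 93.1 and 92.7 in the KO ones (0.48 ± 0.04 SE, adjusted p = 3.32e-08), and was also higher in both cocultures (0.79 and 0.78). The groups did not overlap. In starved monoculture it was not called (0.03). Ctsl was higher in KO in 3 conditions (0.27, 0.45 and 0.52) and lower in starved monoculture (-0.56); 26.9% of its exon bases are shared with other annotated genes. Manba and Lipa showed the same order, with Manba at 3.397, 3.57 and 3.37 FPKM in WT and 9.41, 8.97 and 8.81 in KO cocultures without serine and glycine (1.18 ± 0.06 SE, adjusted p = 1.6e-12), though Lipa's call with serine and glycine in monoculture (0.23) was lost without replicate 1 of KO (0.14). Galns was higher in KO in 3 conditions, from 0.34 in starved monoculture to 0.77 in starved coculture. Cd63 was higher in both cocultures (0.39 and 0.35). Atp6v0d1 was higher in KO without serine and glycine, in monoculture (1.25) and in coculture (0.44).

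**Figure D4:**
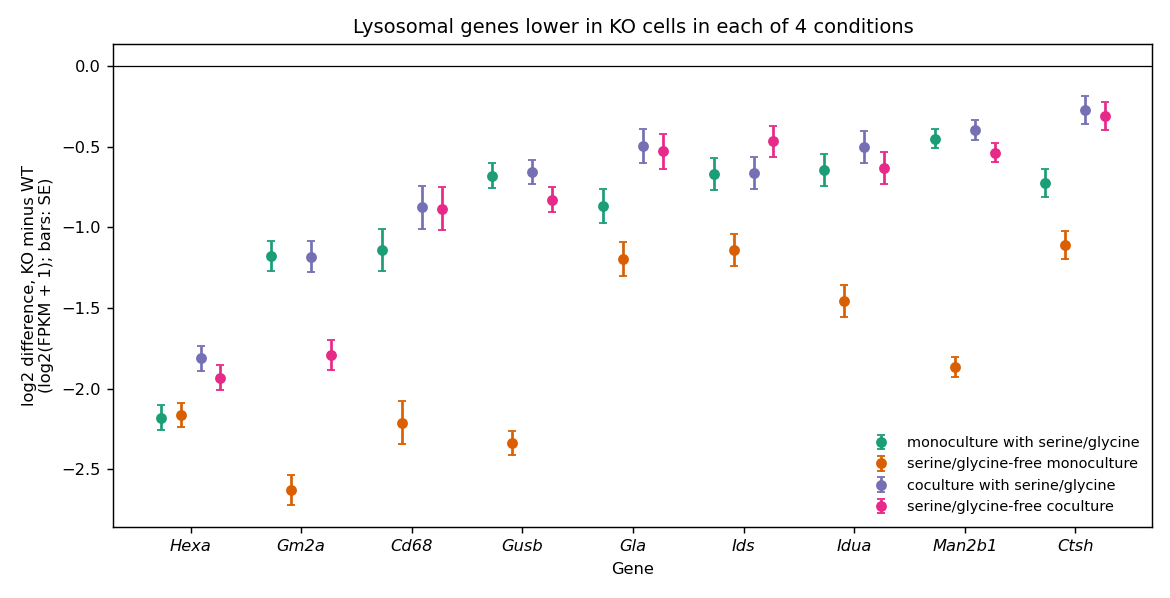
Difference in log2(FPKM + 1), KO minus WT, of the 9 genes lower in KO in all 4 conditions (colours), with bars of 1 standard error. For all but Hexa the point of serine/glycine-free monoculture is the lowest of the 4; Hexa lies between -2.18 and -1.81 in all 4.

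In WT cells, genes that differed in coculture were mostly lower. With serine and glycine 20 of 36 genes were lower in coculture and 1 was higher, with a median of -0.28 (31.2% of all genes called, 16.3% higher, 14.9% lower). Without them 19 were lower and 3 higher, with a median of -0.21 (28.1% called, 14.9% higher, 13.1% lower), and the 3 became 1 without replicate 1 or 3 of the monoculture or replicate 1 of the coculture. With limma voom 26 and 21 genes were lower and 0 and 1 higher. Voom also moved the median of all genes in the 2 comparisons to -0.11 and -0.10. The share of higher calls among all called genes went from 52.3% to 35.6% and from 53.2% to 34.4%. The deposited FPKM were scaled by 1.05 to 1.07 times a library's own reads in WT monocultures and 0.983 to 1.003 times in WT cocultures. Voom used each library's own total, and the part of this scaling in the shift was not tested.

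Hexa showed the largest WT change in coculture with serine and glycine (-1.32 ± 0.08 SE, adjusted p = 4.34e-11). Neu1 went from 64.7, 63.1 and 59.3 to 37.3, 36.9 and 37.8 FPKM (-0.72 ± 0.07 SE, adjusted p = 5.22e-08), with no overlap. Gla (-0.65), Gusb (-0.61), Asah1 (-0.61) and Ctsa (-0.58) followed. Ctsa had 37.3, 37.9 and 37.3 FPKM there. The 1 gene higher was Psap (0.19), from 233, 238 and 229 to 269.9, 259 and 270.1 FPKM; quantile normalization, voom or leaving out replicate 3 of the monoculture removed that call. In the serine/glycine-free comparison quantile normalization turned Psap from 0.18 to -0.06. Cd68, Glb1, Atp6ap1 and Tfe3 were not called in either WT comparison.

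In KO cells with serine and glycine coculture made 8 genes higher and 10 lower, with a median of -0.07 (40% of all genes called, 20.1% higher and 19.9% lower), and the share of higher calls among all called genes was 50.4% (37.9% with voom). Naglu rose (0.702 ± 0.14 SE, adjusted p = 0.000597), from 4.66, 8.001 and 7.63 to 11.6, 10.8 and 11.7 FPKM, and its first monoculture library was below the other 2. Ctsh, Psap and Galns also rose (0.500, 0.47 and 0.44), while Hexa (-0.96) and Gusb (-0.59) fell. The count higher was 5 without replicate 1 or 2 of the coculture, and the count lower was 16 with quantile normalization. Fitted on these 2 groups alone, 11 of the 18 calls were kept.

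The interaction of genotype with coculture in medium with serine and glycine was called for 9 of 36 genes, all with a KO change above the WT change, where 10.4% of all genes were called (4.98% higher, 5.39% lower). They were Naglu (0.995 ± 0.20 SE, adjusted p = 0.00338), Galns (0.63), Ctsh (0.45), Hexa (0.37), Neu1 (0.37), Manba (0.34), Cd63 (0.32), Ctsb (0.302) and Psap (0.29). The count was 5 without replicate 1 of the WT monoculture or replicate 1 of the KO coculture, and 5 when only the 4 groups were fitted. The lower direction had 0 calls with limma and 0 with voom. At an unadjusted p of 0.05 in limma, 18 genes were higher and 0 lower. The share of all genes past that threshold was not taken.

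From lists of the same organelle and its control, 99 further genes were read in the same fit, of which 92 were tested. These lists too were chosen with earlier results of these data known. Of 22 other lysosomal hydrolases, 16 fell and 2 rose on withdrawal in KO monoculture (median -0.65), where 34.5% of all genes fell and 36.2% rose. Arsa, the sulfatase of sulfatide breakdown, changed by -1.94, Dnase2a, an acid DNase, by -1.69 and Acp2, an acid phosphatase, by -1.503, whereas Plbd2 changed by 0.52. In coculture of starved KO cells 17 of the 22 rose and 1 fell (median 0.66; all genes, 35% higher and 36.3% lower), with Dnase2a at 1.67 and Arsa at 1.52. Of 15 other pump subunits 11 rose and 3 fell on withdrawal in KO monoculture (median 0.49). Atp6v1d (1.44) and Atp6v1b2 (1.42), both of the cytosolic V1 sector, led; Tcirg1, an isoform of the membrane a subunit, fell (-0.95). In coculture of starved KO cells 3 rose and 11 fell (median -0.58), with Atp6v1d at -1.402. As above, both comparisons use the same starved KO monocultures.

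The remaining lists are read against the same all-gene share of 70.8% called on withdrawal in KO monoculture (36.2% higher, 34.5% lower). Among 16 other lysosomal membrane proteins 5 rose and 7 fell (median -0.06), near that background. Mfsd8 (1.07) and the cholesterol exporter Npc1 (0.99) rose. The sialic acid exporter Slc17a5 (-1.44) and the cation channel gene Tpcn1 (-1.09) fell. Of 17 genes of mTORC1 control 10 rose and 5 fell (median 0.21): Lamtor3 (0.89) and Lamtor1 (0.801), parts of the Ragulator anchor, rose, and Tsc2 (-0.92), a brake on mTORC1, fell. Of 17 autophagy genes 4 rose and 8 fell (median -0.08), in total again near the background, with Gabarap, an LC3 relative, at 0.896 and Wipi1, a phosphoinositide-binding protein of early autophagosomes, at -2.39. Of 5 genes of mannose 6-phosphate delivery 3 rose and 1 fell, led by Gnptab, which makes the tag (1.03). In WT cells withdrawal called 2 of the 92 in monoculture, Igf2r (0.402) and Mtor (0.31), and 1 in coculture, Atg9b (-0.57), counts near the backgrounds of 1.63% and 0.738%.

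**Figure D5:**
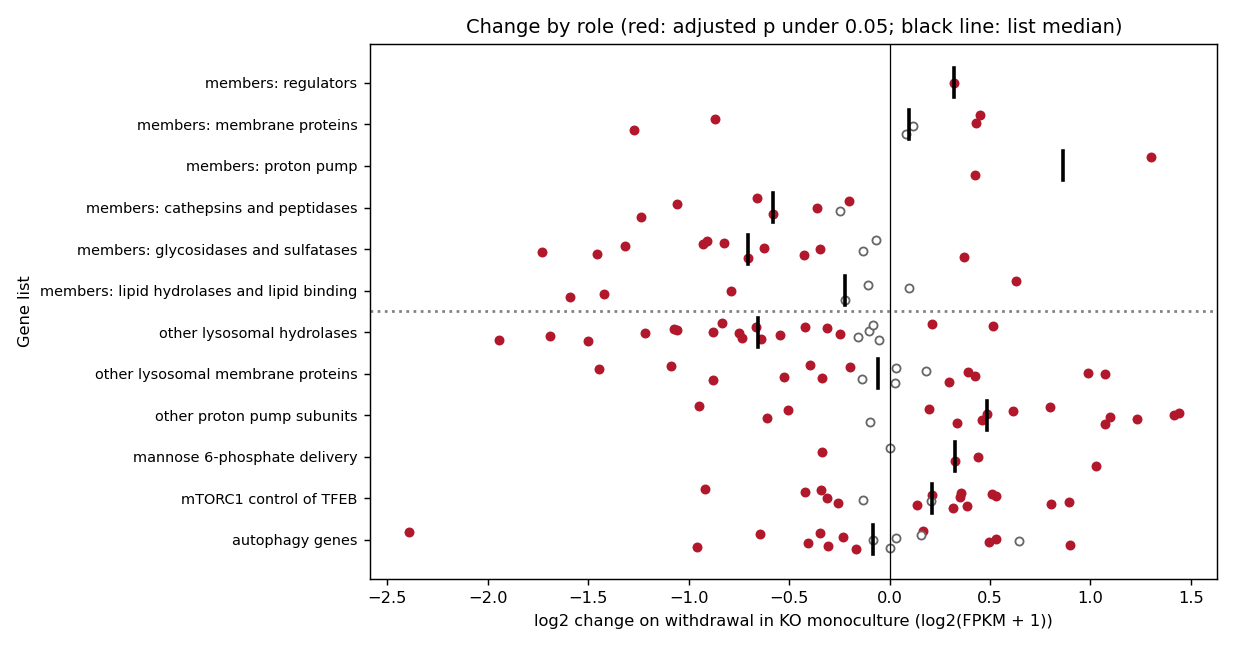
Change in log2(FPKM + 1) on withdrawal in KO monoculture for each tested gene (points), by role for the 36 members and by list for the 92 other genes; red points passed limma's adjusted p of 0.05, and black lines mark medians. The other hydrolases have a median of -0.65 and the other pump subunits one of 0.49.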

How the data were processed

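RNA sequencing of 24 libraries was read from a table in which the authors deposited FPKM for 54532 genes, with Ensembl identifiers and GRCm38 positions. Reads were aligned with HISAT2 to GRCm38 (mm10), per the submitters' processing notes; versions, counter, annotation release and strand use were not given in the sources used here. Reads per gene could be recovered, since in each library FPKM times gene length came out in whole steps (tolerance 0.01 read, 100% of values). The library total implied by these steps was 0.969 to 1.07 times the recovered reads, so FPKM were not scaled to own totals alone. Since strand use was not stated, reads on exons shared with a gene on the other strand cannot be told apart. Ctsd, Ctsl and Glb1 share exon bases with a gene on their own strand (Gm49369, Gm49230 and Tmppe). For these, strand would not separate the reads either.

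Differences were taken on log2(FPKM + 1), which understates changes of low genes, for 12061 genes with at least 1 FPKM in at least 3 libraries. In R 4.3.3, limma 3.58.1 fitted 8 group means in 1 model with 16 residual degrees of freedom, for 13 comparisons of 2 groups and 3 interactions. Its moderated two-sided test used a mean-variance trend. P-values were adjusted by Benjamini-Hochberg over all 12061 genes and called under 0.05. The script was tested on simulated data. Members and lists were chosen with earlier results of these data known. Single-gene statistics are given for called members; further genes come from fixed lists, at most 3 a list and direction by size of change, and promoters from at most 6 called members with a motif.

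All same-numbered libraries deviated together (correlation over 0.1) only in the withdrawal comparison of KO monocultures, at 0.401, 0.276 and 0.114. A replicate block there left the count at 28. Some deviated in opposite ways elsewhere. For serine/glycine-free KO coculture, replicates 1 and 2 correlated at -0.628 and -0.517 with KO monoculture with both amino acids. With serine/glycine-free KO monoculture they correlated at -0.340 and -0.256. Replicate 3 was near 0 in both (3e-04 and -0.0097). Alternatives were a pseudocount of 0.1, no filter, quantile normalization, limma voom on the recovered reads, only the groups compared, the replicate block, 2 libraries left out, and each replicate left out in turn. Precision is limited by 3 libraries a group.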

Additional observations from a re-analysis of the deposited data

Results flagged for a closer look

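Some effects differed between groups by the test of the difference itself. The withdrawal effect in monoculture differed between genotypes for 26 of the 36 tested genes (72.2%), against 61.2% of all tested genes. In KO cells it differed between coculture and monoculture for 24 (66.7%), against 57.7% of all. The coculture effect with serine and glycine differed between genotypes for 9 (25%), against 10.4% of all. For Lipa and Manba both withdrawal effects in KO cells passed the test with opposite signs: Lipa changed by -1.42 in monoculture and 0.71 in coculture (difference 2.13), and Manba by -0.93 and 0.68 (difference 1.60). Dixon's test for a distant library was not run, since it needs at least 4 libraries in a group.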

How the results depend on the processing

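Of 315 member values called, 256 kept direction and call under every alternative, 59 did not, and 3 of these changed sign, all with quantile normalization: Cd63 and Atp6ap1, KO against WT in serine/glycine-free monoculture (-0.0113 and -0.0975), and Psap, coculture in serine/glycine-free WT cells (-0.0647). Of 16 counts of called members, 12 stayed within 1.5 times the reported count. With only the groups compared in the fit, coculture in KO with serine and glycine gave 11 (reported 18), KO serine/glycine-free coculture against KO monoculture with both gave 12 (22), and the genotype by coculture interaction gave 5 (9). Withdrawal in WT monoculture gave 0 (1) with quantile normalization. A fit on only the groups compared has fewer residual degrees of freedom and takes its spread from those groups alone. Over all tested genes such fits did not always call fewer. For coculture with serine and glycine they called 2840 genes in KO (4824 in the main fit) but 4504 in WT (3763). The reason for these shifts was not tested.

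Leaving out 1 library at a time gave 23 to 25, 27 to 31, 21 to 22 and 26 to 29 calls for KO against WT (monoculture with and without serine and glycine, then coculture), 0 to 1, 27 to 30, 0 and 11 to 17 for withdrawal in WT monoculture, KO monoculture, WT coculture and KO coculture, 20 to 21, 12 to 17, 18 to 21 and 27 to 28 for coculture in WT with, KO with, WT without and KO without, 19 to 23 for the cross comparison, and 25 to 27, 23 to 25 and 5 to 11 for the 3 interactions. The replicate block kept 28 calls for withdrawal in KO monoculture. It removed 5 member calls in all, among them 1 of 9 for the genotype by coculture interaction (8). In the other comparisons of 2 groups, same-numbered libraries did not all deviate together. Leaving out replicate 1 of both KO monoculture groups gave 19 calls for withdrawal in KO coculture (13). For Tfeb, 28 to 106 reads a library limit what could be seen.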
